A study of Mus musculus with 6 samples.

Results

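A small group of T cells was found among sorted CD169-lineage lymph node cells, and these T cells are described here across 4 mice. They were chosen by their own measured UMIs (unique molecular identifiers, which count captured RNA molecules). A cell entered the gate with at least 1 UMI of the CD3 genes Cd3e, Cd3d and Cd3g together, at least 2 UMIs of Tcrg-C1, Cd163l1 and Trdc together, and no UMI of the natural killer receptor gene Ncr1. The gate held 583 of the 12139 cells kept, and the other 11556 kept cells were the first comparison group. The cells had been proposed as gamma-delta innate-like T cells, with Tcrg-C1, Cd163l1, Cxcr6, Cd3e and Blk as markers. The RNA data went against that name for part of them, so they are called gated T cells.

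All 4 mice were CD169Tom mice (Cd169Cre/+ with a floxed tdTomato reporter) on a C57BL/6J background and over 6 weeks old. In this model Cre is expressed from the Siglec1 locus, which encodes CD169, so tdTomato (TOM) marks any cell that has expressed Siglec1 and the progeny of such a cell. Of these mice, 2 were unimmunized and 2 had been immunized with hen egg lysozyme 9 days before the inguinal lymph nodes were taken. In the paper's method this antigen is lysozyme conjugated to an ovalbumin peptide and given in Sigma Adjuvant System. Cells were stained with antibodies that carry a sequence tag, sorted as CD11b+TOM+ cells, pooled and run as 2 10X captures, and the mouse of each cell was read from its hashtag antibody. The paper's general method immunized recipients of transferred B and T cells the day after the transfer. For this experiment the sources used do not say whether the immunized mice had also received such cells.

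Gamma-delta T cells carry a T cell receptor made of a gamma and a delta chain, in place of the alpha and beta chains of conventional T cells. Some of them leave the thymus already committed to make IL-17. Such type 17 cells use the transcription factors SOX13, c-MAF and PLZF (encoded by Zbtb16), respond to IL-23, IL-1 and IL-7 without prior antigen priming, and in lymph nodes sit near the subcapsular sinus, beside the CD169+ macrophages. Some alpha-beta T cells share this type 17 programme.

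The tags below carry the 2 measurements that do not come from the gate. Hashtags 1 and 2 gave the unimmunized mice, and hashtags 3 and 4 the immunized ones. The antibody against CD169 and the antibodies against the macrophage proteins CD68 and F4/80 gave the antibody readout. The paper describes CD68 as a marker of late endosomes. Each sequence is the tag read from 5′ to 3′, and the capitals mark the whole tag.
Hashtag 1: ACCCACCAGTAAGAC
Hashtag 2: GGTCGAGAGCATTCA
Hashtag 3: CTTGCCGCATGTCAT
Hashtag 4: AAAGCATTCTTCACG
CD169: ATTGACGACAGTCAT
CD68: CTTTCTTTCACGGGA
F4/80: TTAACTTCAGCCCGT

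The genes that define the cells are given with their positions in GRCm38. The gate genes Tcrg-C1, the constant region of a T cell receptor gamma chain, Cd163l1, a scavenger receptor of the WC1 family, and Trdc, the constant region of the delta chain, are annotated at chr13:19214103-19217024, chr7:140218267-140231145 and chr14:54142851-54148868. The alpha chain constant region Trac lies downstream of Trdc on the same strand, at chr14:54220521-54224206. Cxcr6, a chemokine receptor, is annotated at chr9:123806475-123811760, Blk, a kinase of the Src family, at chr14:63372836-63417037 and Siglec1 at chr2:131069220-131086765.

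The gated T cells were very unevenly spread over the mice. Unimmunized mouse 1 gave 452 of them, unimmunized mouse 2 gave 45, immunized mouse 1 gave 67 and immunized mouse 2 gave 19. Their summed UMIs were 3200376, 291517, 679404 and 154859, so values of immunized mouse 2 rest on the fewest molecules. Median UMIs per cell were similar, at 6395, 6280, 7619 and 7737, with 2318.5, 2301, 2483 and 2531 genes detected. The captures contributed alike, with 288 cells in capture 1 and 295 in capture 2. The 621 barcode sequences found in both captures had been left out.

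The receptor genes split the gated T cells. A Trdc UMI was found in 264 of 583 cells (45.3%), at 47.1% and 44.4% in the unimmunized mice and 31.3% and 52.6% in the immunized mice. Cells with Trdc had a median of 7 UMIs of it, and 15 cells had exactly 1. Trdc is a gate gene and the gate needs 2 UMIs, so these values are in part set by the rule. Among 308 cells gated as B cells, 1 cell (0.325%) had a Trdc UMI. That gate took cells with at least 2 UMIs of B cell genes, among them Cd79a and Ms4a1, at most 1 UMI of the gate genes, and none of CD3 or Ncr1, so cells with T cell RNA were partly removed from it and its shares may understate the background. At 1000 UMIs per cell the mean share with Trdc over the mice was 28.2% for gated T cells and 2.17% for Ncr1+ cells without CD3 UMIs, a difference in the direction that the rule fixes.

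Alpha-beta receptor transcripts were also found in gated T cells. Trac was detected in 285 cells (48.9%), and in 45.4%, 46.7%, 70.1% and 63.2% of the cells of unimmunized mice 1 and 2 and immunized mice 1 and 2. Trbc1 or Trbc2, the beta chain constant regions, were detected in 563 cells (96.6%), but they did not mark alpha-beta T cells here, since Trbc1 was also found in 61.3% and Trbc2 in 47.3% of Ncr1+ cells without CD3 UMIs, against 1.95% for Trac. Of the B cells, gated to have no CD3 UMI, 0 of 308 had a Trac UMI, which allows a share of up to 0.974%. By cell, 211 cells (36.2%) had Trdc alone, 232 (39.8%) had Trac alone, 53 (9.09%) had both and 87 (14.9%) had neither. Trac was found in 20.1% of cells with Trdc and in 72.7% of cells without it. By mouse, in the same order, Trac was found in 40 of 213, 1 of 20, 7 of 21 and 5 of 10 cells with Trdc, and in 165 of 239, 20 of 25, 40 of 46 and 7 of 9 cells without it. Tcrg-C1, which let most cells into the gate, was detected in 527 cells (90.4%), and Cd163l1 in 165 (28.3%). The delta chain of the label was thus detected in 264 cells, while 232 cells had the alpha chain constant region and no delta chain UMI.

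**Figure D1:**
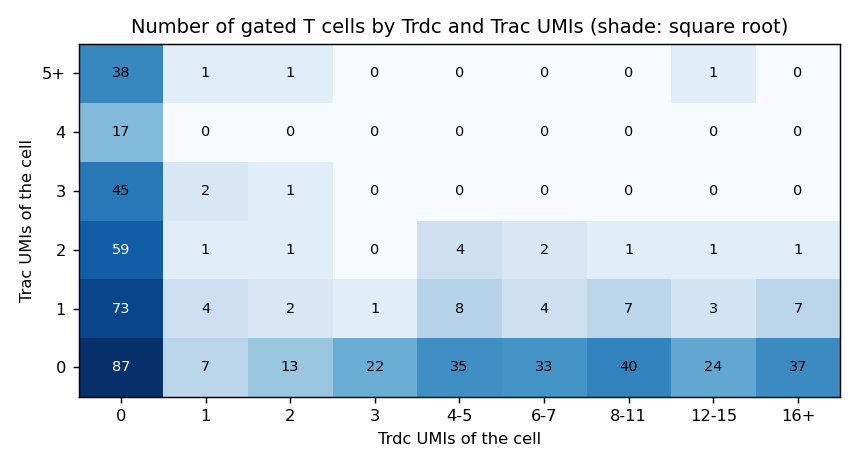
Number of gated T cells (shade and figures) by Trdc UMIs of the cell (horizontal) and Trac UMIs of the cell (vertical). Most cells lie along one of the 2 axes, with 211 cells that have Trdc and no Trac, 232 with Trac and no Trdc, and 53 with both.

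The cells on either side of the limit are given with no test, and since Trdc is a gate gene its level follows from the rule. The 241 cells just outside, with 1 UMI of the 3 gate genes, had 10.8 CPM of Trdc and 251.8 CPM of Trac over their summed UMIs (CPM gives the UMIs of a gene scaled to the same total for every library), and the 160 cells just inside, with 2 UMIs, had 10.9 and 256.2 CPM. The 423 cells with 3 or more UMIs had 788.6 CPM of Trdc and 133.8 CPM of Trac. Cxcr6 was at 848.8, 932.8 and 875.5 CPM from outside to inside, and Blk was at 192.2, 219.4 and 364.9 CPM.

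The share of gated T cells among kept cells was 15.98% in unimmunized mouse 1 (95% exact binomial interval 14.7 to 17.4%) and 8.38% (6.18 to 11.1%) in unimmunized mouse 2. It was 1.65% (1.28 to 2.10%) in immunized mouse 1 and 0.402% (0.242 to 0.628%) in immunized mouse 2. Intervals cover counting error only. Both immunized mice lay below both unimmunized mice, with means of 1.03 ± 0.885% and 12.2 ± 5.38% (SD over 2 mice each). The difference was −11.2 percentage points, with a two-sided exact permutation p of 0.333, which is the smallest that 2 mice against 2 can give. The order of the mice was also seen in each capture, at 15.5%, 9.20%, 1.51% and 0.447% in capture 1 and 16.5%, 7.61%, 1.81% and 0.354% in capture 2. It was kept at a fixed depth of 2000 UMIs per cell, at 9.04%, 4.72%, 0.813% and 0.235%, with 491 shallower cells left out. A share can fall because gated T cells were fewer or because other sorted cells were more numerous, and these cannot be told apart here.

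Most other gates had lower shares in the immunized mice too, lymphocytes and macrophages alike. Cells called αβ-gated T cells below had at least 1 CD3 UMI and at least 2 UMIs of Trac, Trbc1 and Trbc2 together. They had no UMI of Tcrg-C1, Cd163l1, Trdc or Ncr1, and took 10.2%, 9.68%, 2.86% and 1.57% of kept cells. Trac was detected in 75.7%, 82.7%, 88.8% and 89.2% of them. The rest entered by Trbc1 and Trbc2, which did not mark alpha-beta T cells here. Ncr1+ cells without CD3 UMIs took 9.05%, 7.82%, 3.41% and 1.65%. B cells took 2.90%, 2.98%, 4.12% and 0.911%, so immunized mouse 1 was the highest for them. Sinus macrophages, gated by Marco, Cd209b and Cd209f, took 11.2%, 5.77%, 4.10% and 0.551%.

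**Figure D2:**
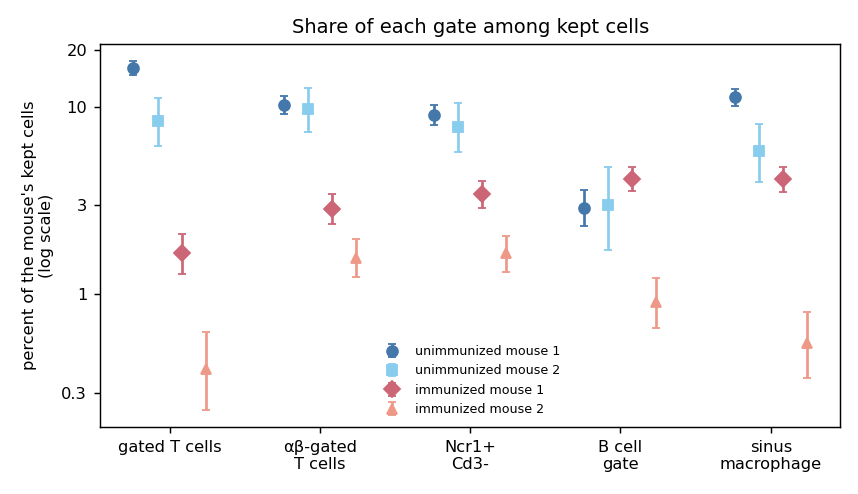
Share of kept cells in each gate (vertical axis in percent, log scale) for each of the 4 mice, with 95% exact binomial intervals as bars. Gated T cells run from 15.98% and 8.38% in the unimmunized mice to 1.65% and 0.402% in the immunized mice, the widest range of the 5 gates.

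The marker genes of the label were compared first with all other kept cells, in UMIs summed per mouse and given as CPM. Cxcr6 and Blk were not used by the gate. They are markers of the proposed label, however, and the gate was chosen with earlier results of these data known. Their tests are therefore no independent support for the label. Cxcr6 was at 931, 834, 773 and 697 CPM in gated T cells of unimmunized mice 1 and 2 and immunized mice 1 and 2, against 180.3, 106.1, 16.8 and 3.88 CPM in the other cells. Blk was at 355, 268, 225 and 245 CPM against 38.6, 23.5, 8.11 and 1.80 CPM. For both genes every gated value lay above every other value. The fitted differences were 4.13 (SE 0.41, adjusted p = 0.000206) for Cxcr6 and 4.19 (SE 0.42, adjusted p = 0.000219) for Blk on the log2 scale. The gate genes themselves are given without a test. Trdc was at 660.5, 367.0, 242.9 and 626.4 CPM, Tcrg-C1 at 434.0, 346.5, 275.2 and 290.6 CPM, Cd163l1 at 332.8, 51.5, 76.5 and 6.46 CPM and Cd3e at 570.6, 507.7, 418.0 and 529.5 CPM. Cd163l1 was therefore mainly a transcript of unimmunized mouse 1.

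Against all other kept cells, 11242 genes were tested, and 1416 were higher and 2140 lower in gated T cells by edgeR's quasi-likelihood test at an adjusted p of 0.05. This is 12.6% of genes higher, 19% lower and 31.6% in either direction, the background against which list counts are read. The number called fell strongly when either unimmunized mouse was left out, as given in the section on processing. The median difference over all genes was −0.08. Since the gate required a CD3 UMI, T cell genes had to be higher in part by its construction, and the other cells still held T cells: Trac was detected in 15.5% and 11.2% of them in the unimmunized mice and 4.02% and 2.57% in the immunized mice.

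Of the type 17 transcription factor list, which also holds the kinase gene Blk, all 15 genes were tested. Of these, 10 were higher, Blk among them, and 2 lower, with a median difference of 2.73. Sox13, a factor of IL-17-producing gamma-delta cells, was at 57.5, 48.0, 19.1 and 32.3 CPM against 3.11, 2.27, 0.339 and 0.162 CPM, a difference of 5.13 (SE 0.33, adjusted p = 7.8e-05). Maf was the most abundant, at 779, 738, 546 and 530 CPM against 182, 106, 57.6 and 58.3 CPM (2.53, SE 0.16, adjusted p = 7.72e-05). Zbtb16 rose by 4.21 and Hlf, a bZIP factor, by 4.29. Etv5 and Rbpj, the nuclear effector of Notch, were lower, by −0.90 and −0.93.

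Of 19 genes in the list of type 17 receptors and surface proteins, which also holds the alpha-actinin gene Actn2, all were tested. Of these, 17 were higher and none lower, with a median of 3.20. Il23r, the IL-23 receptor, was at 79.7, 48.0, 51.5 and 77.5 CPM against 14.3, 7.66, 1.30 and 0.340 CPM (4.16, SE 0.42, adjusted p = 0.000212). Il7r, the IL-7 receptor alpha chain, was the most abundant of those named, at 1660.1, 1664, 1308.5 and 1246 CPM against 433, 291, 50.1 and 11.9 CPM (3.51, SE 0.39, adjusted p = 0.000292). Il17re, a receptor subunit for IL-17C, differed by 4.53, Il1r1, the IL-1 receptor, by 3.53, Ccr6, the receptor for CCL20, by 3.37 and 5830411N06Rik, a second scavenger receptor of the Cd163l1 family, by 4.80. Ccr2 and Cd44 did not pass, at −0.41 and −0.19.

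The type 17 cytokine genes were low in these cells, at 26.2, 34.3, 44.2 and 64.6 CPM summed over 6 genes. Csf2, which encodes GM-CSF, was the most abundant, at 19.998, 24.01, 13.2 and 25.8 CPM, with a UMI in 12.3% of gated T cells. Il17a was at 0.937, 0, 10.3 and 0 CPM, Il17f at 3.75, 10.3, 10.3 and 25.8 CPM and Il22 at 1.56, 0, 10.3 and 12.9 CPM. Of 6 type 17 cytokines, 3 passed the filter on low counts (Il17f, Il22 and Csf2) and were called higher than in the other cells. None of the 3 exceeded 3.05 CPM in the other cells of any mouse. They thus passed the filter mainly through the gated T cells, so their direction was in part set by it and no conclusion is drawn. Il17a, Il21 and Areg were not tested.

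Few genes of type 1 and cytotoxic cells were higher. Of 17 tested, 1 was higher (Cd27, a costimulatory receptor, by 1.82) and 5 were lower, with a median of −0.70. Gzma, a granzyme of natural killer cells, was at 6.87, 0, 7.36 and 6.46 CPM against 486, 498, 202 and 47.4 CPM (−5.48, SE 0.63, adjusted p = 0.000366). Ccl5 was lower by −2.11 and Slamf7 by −2.61. Of 11 natural killer genes, Klre1 and Klri2 were lower and Txk, a kinase also used by T cells, was higher. The gate required no Ncr1 UMI, so Ncr1+ cells without CD3 UMIs were in the comparison group. Those cells had Gzma at 3749, 5135, 6777 and 1529 CPM. Lower natural killer and cytotoxic genes were thus in part set by the rule. Of 6 lymphotoxin and TNF family ligands tested, 5 were higher, with a median of 1.81. Ltb, the membrane subunit of lymphotoxin, was at 1100.5, 926, 1033 and 1033 CPM against 405, 328, 175 and 78.0 CPM (1.98, SE 0.23, adjusted p = 0.00037).

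Homing genes went both ways, with 6 higher and 5 lower of 18 tested. Itgae, the alpha chain of the integrin CD103, was higher by 3.76, Itgb7, its partner, by 1.83 and S1pr1, a receptor for egress from lymphoid tissue, by 2.07. Ccr7, a receptor for lymph node entry, was lower by −1.66, Cxcr4 by −1.27, Itga4 by −2.13 and Itgam, which encodes CD11b, by −2.25. The tissue integrin gene Itgae and the lymph node entry gene Ccr7 thus differed in opposite directions.

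T cell receptor and signalling genes outside the gate were mostly higher, 15 of 17 tested and none lower, with a median of 3.48, as were 6 of 11 alpha-beta T cell genes, with a median of 1.87. Lat, an adaptor of receptor signalling, was at 303, 316, 297 and 310 CPM against 69.5, 54.2, 12.2 and 4.30 CPM (3.49, SE 0.29, adjusted p = 0.000121). Tcf7, a factor of resting and memory T cells, was higher by 2.62 and Cd40lg by 4.09. Of 12 activation and checkpoint genes tested, 4 were higher (Pdcd1, Icos, Il2ra and Tox) and Havcr2 was lower. Pdcd1, which encodes PD-1, was at 11.2, 0, 11.8 and 12.9 CPM in gated T cells, and its fitted difference of 3.76 became −0.89 without unimmunized mouse 1. Of 6 innate lymphoid cell genes tested, 3 were higher, among them Id2 (1.66) and Gata3 (3.51), and Kit was lower (−2.61).

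Lists of other cell types and states were lower or mixed. Of 10 B cell genes, 7 were lower, of 7 neutrophil genes 4, of 11 dendritic cell and antigen presentation genes 9 and of 16 interferon response genes 9, and none of these lists had a higher gene. The interferon-induced gene Ifi27l2a was at 372, 401, 623 and 336 CPM against 1147, 2146, 1837 and 1499 CPM (−2.20, SE 0.26, adjusted p = 0.000385). Immediate early and heat shock genes had 2 higher (Hsph1 and Dnajb1) and 7 lower of 15, and cell division genes 1 higher (Mcm6) and 3 lower of 15.

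Further genes were named by the rule of largest change. Trgv2 (a gamma chain variable segment, 5.23), Tcrg-C2 (5.07), Actn2 (an alpha-actinin, 4.60), Coro2b (a coronin, 4.28) and Ly6g5b (4.27) were among the 8 that rose most. Reads of Tcrg-C2 may be shared with the near-identical Tcrg-C1 of the gate, so its value is not independent of the rule. Among those that fell most were S100a8 and S100a9, calprotectin subunits of neutrophils and monocytes (−5.23 and −4.47), H2-M2 (−4.75), Skint3 (−4.27) and the chemokine gene Ccl4 (−4.27). Ccl17 and Smpdl3b were at 0 in gated T cells of both immunized mice, and no fold is given for them.

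The comparison with αβ-gated T cells was made to set aside genes that T cells share. αβ-gated T cells had to lack Tcrg-C1, Cd163l1 and Trdc UMIs, so differences in genes that go with these are in part set by both gates. The 241 cells with 1 UMI of these genes were in neither group. Over their summed UMIs they had Blk at 192.2, Cxcr6 at 848.8 and Il23r at 66.3 CPM. There were 530 αβ-gated T cells (288, 52, 116 and 74 per mouse). Of 8807 genes tested, 30 were higher (0.341%) and 52 lower (0.59%) in gated T cells, or 0.931% in either direction, with a median difference of −0.02 over all genes. This count rested on unimmunized mouse 1: without it 0 genes were called by edgeR (527 at an unadjusted p under 0.05). Without unimmunized mouse 2, 9 genes were called, and without immunized mouse 1 or 2 the counts were 154 and 278.

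**Figure D3:**
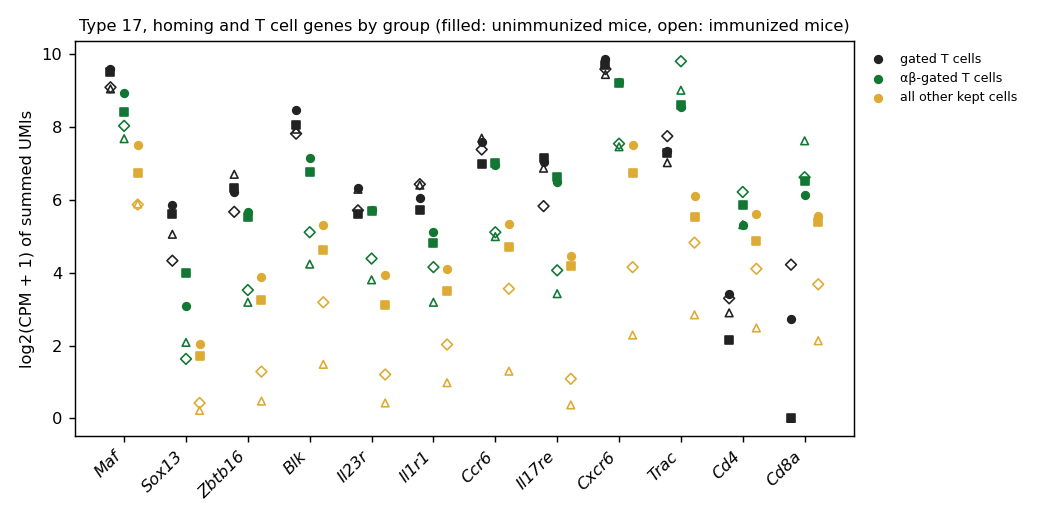
Level of type 17, homing and T cell genes as log2(CPM + 1) of UMIs summed per mouse, for gated T cells, αβ-gated T cells and all other kept cells, with filled symbols for unimmunized and open symbols for immunized mice. Within each of the 4 mice Blk and Sox13 are highest in gated T cells, and their αβ-gated values are lower in the immunized than in the unimmunized mice.

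Blk had the smallest p of the genes that rose among those named. Its αβ-gated values were 140.3, 108.0, 33.6 and 17.9 CPM, all below the 225 to 355 CPM of gated T cells (2.12, SE 0.20, adjusted p = 0.000319). Sox13 was at 7.47, 15.0, 2.10 and 3.25 CPM in αβ-gated T cells, again below every gated value (2.71, SE 0.40, adjusted p = 0.00585). Maf rose by 0.92 and Zbtb16 by 1.63, the latter close to the threshold (adjusted p = 0.0495). In all, 5 of 15 genes of the type 17 transcription factor list were higher and none lower, with a median of 0.51. The kinase gene Blk was among the 5.

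The list of type 17 receptors and surface proteins behaved alike, though it also holds Actn2, which encodes an alpha-actinin. All 19 genes had a positive difference, with a median of 1.01. The 5 that passed the test were Il1r1 (1.72), Il17re (1.42), Ccr6 (1.34), 5830411N06Rik (2.65) and Actn2 (1.30). Il23r did not pass, at 52.3, 51.0, 19.96 and 13.0 CPM in αβ-gated T cells (1.01, adjusted p = 0.131), nor did Il7r (0.77, adjusted p = 0.714). The label marker Cxcr6 did not pass either. It was at 608, 591, 186 and 175 CPM in αβ-gated T cells (1.19, SE 0.34, adjusted p = 0.163), all below the 697 to 931 CPM of gated T cells, but the difference did not pass after adjustment over all genes tested. Of 15 T cell receptor and signalling genes tested outside the gate, 1 was higher (Tcrg-C2, 2.06) and 1 lower (Cd28, −2.37). αβ-gated T cells were required to lack Tcrg-C1, with which Tcrg-C2 may share reads, so its difference is in part set by both gates. Trgv2 (2.18) was also higher, as were Cryba4 (a crystallin, 2.79), Lmna (lamin A, 1.79) and Sept8 (a septin, 1.69).

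Genes of conventional alpha-beta T cells were lower than in αβ-gated T cells. Of 9 alpha-beta T cell genes tested, 7 were lower and none higher, with a median of −2.88. The CD8 chain genes Cd8a and Cd8b1 both differed by −3.77. Cd8b1 was at 7.81, 6.86, 32.4 and 0 CPM against 95.5, 147, 201 and 328 CPM (SE 0.38, adjusted p = 0.000749). Cd4 differed by −2.65, Cd5, a negative regulator of receptor signals, by −2.88 and Lef1, a factor of naive T cells, by −3.55. Foxp3, the regulatory T cell factor, was at 0 in gated T cells of all 4 mice and at 10.1, 15.0, 55.7 and 9.74 CPM in αβ-gated T cells.

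Other genes were lower than in αβ-gated T cells. Dapl1 had the smallest p of the named genes, at 1.25, 0, 11.8 and 0 CPM against 95.5, 153, 154 and 213 CPM (−5.52, SE 0.39, adjusted p = 5.34e-05). Izumo1r, which encodes a folate receptor found on regulatory T cells, differed by −4.80, Art2b by −3.58, BE692007 by −4.37 and Tnfrsf4, which encodes OX40, by −3.70. Ctla4 was at 0.312, 0, 0 and 0 CPM against 10.1, 3.00, 78.8 and 16.2 CPM. Of 11 activation and checkpoint genes tested, 3 were lower (Ctla4, Tnfrsf4 and Cd28), and of 17 type 1 genes 1 was lower (Cd27, by −1.30). Of 3 B cell genes tested, Ighm was lower (−1.31). Of 18 homing genes, 4 were lower, among them Ccr7 (−2.52), Cxcr3 (−2.59) and Itga4 (−1.05), and none was higher. Lists of natural killer, innate lymphoid, lymphotoxin and TNF family, and immediate early and heat shock genes had no gene past the test, nor did the 3 neutrophil genes tested. Ifi27l2a was the only 1 of 16 interferon response genes that passed (−1.73). None of the 24 macrophage genes, 9 dendritic cell and antigen presentation genes or 13 cell division genes tested passed.

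The gated T cells with and without Trdc were then set side by side, as a description with no test, since the split was made after the receptor genes had been seen. Of 3027 genes with enough counts, 297 were higher and 335 lower with Trdc in all 4 mice. Some genes share a direction in all 4 mice without any difference, and their number was not worked out. Cells with Trdc had more Sox13, at 101.5, 79.3, 49.5 and 36.2 CPM against 22.01, 24.2, 9.65 and 27.8 CPM without it. In immunized mouse 2 these values rest on 5 Sox13 UMIs in all. They had more Cd163l1 in 3 mice, at 684.8, 79.3, 309.6 and 0 CPM against 49.1, 30.2, 3.86 and 13.9 CPM. Trdc and Cd163l1 both belong to the gate. Mean log2 ratios were taken with 10 CPM added to each value. Among genes higher with Trdc in all 4 mice, the largest were Ms4a4b (2.97), the natural killer receptor gene Klrd1 (2.87) and Klf2 (1.99). Klf2 encodes a factor that drives S1pr1. Without Trdc, Klrd1 was at 0 CPM in immunized mouse 2, so its ratio depends on the added value. The list of type 1 and cytotoxic genes summed to 727, 2055, 2130.1 and 2545 CPM with Trdc and 531, 1178, 697 and 598 CPM without it, higher with Trdc in all 4 mice. Ccl5, its most abundant gene, had a mean log2 ratio of 1.62, and Xcl1, a chemokine gene, had 1.98. Ccl5 was also abundant outside the gate, at a mean of 1469 CPM in all other kept cells and 519 CPM in sinus macrophages.

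Cells without Trdc had more Gclc (mean log2 ratio −2.65), Il17rb (an IL-25 receptor subunit, −2.57), Cd40lg (CD40 ligand, −2.29), Trac (−2.21) and Icos (−2.10). With Trdc, Gclc and Il17rb were at 0 CPM in immunized mouse 2, Il17rb also in unimmunized mouse 2 and Cd40lg in immunized mouse 1. The ratios of these genes depend on the added value. Icos was at 71.4, 55.5, 235.3 and 60.3 CPM with Trdc and 411.3, 537.9, 380.4 and 333.6 CPM without it. Zbtb16 was found in both kinds, at 63.7, 39.7, 31.0 and 24.1 CPM with Trdc and 81.2, 108.8, 56.0 and 194.6 CPM without it. In unimmunized mouse 2 and immunized mice 1 and 2 the values with Trdc rest on 5, 5 and 2 UMIs.

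Macrophage antibody counts on these cells were high for CD169. The median CD169 count was 59 (quartiles 40 and 84) and 58 (46 and 75) in the unimmunized mice and 38 (26 and 63.5) and 39 (8 and 78) in the immunized mice. At least 10 counts were found on 98.5%, 100%, 91.0% and 73.7% of gated T cells. The other kept cells had medians of 39, 20.5, 4 and 3, and cells gated as sinus macrophages by Marco, Cd209b and Cd209f had 39, 29, 15 and 10.5. B cells had 2.5, 2, 8 and 2. In every mouse the gated T cells were above all 3 groups.

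On the centred log ratio scale, in which each antibody is set against the 6 antibodies of the same cell, CD169 was 1.20 ± 0.325 higher on gated T cells than on other kept cells (SD over 4 mice, higher in 4 of 4). It was 0.770 ± 0.248 higher than on αβ-gated T cells, 0.417 ± 0.402 higher than on Ncr1+ cells and 0.874 ± 0.0698 higher than on sinus macrophages, each in 4 of 4 mice. The differences from Ncr1+ cells were 0.158, 0.356, 0.151 and 1.00 by mouse, with a mean of 0.222 without immunized mouse 2, which had 19 gated T cells (an alternative chosen after seeing the data). On the count scale they did not all have this direction, since in unimmunized mouse 1 the mean count was 69.6 on gated T cells and 74.2 on Ncr1+ cells. Each of these 4 comparisons had a two-sided exact sign-flip p of 0.125, the smallest that 4 mice allow, and 0.15 after Benjamini-Hochberg adjustment over 6 antibodies, so none could pass 0.05. αβ-gated T cells had median counts of 48, 31.5, 7.5 and 2, and Ncr1+ cells had 58.5, 44.5, 31 and 7. High CD169 counts were thus also found on αβ-gated T cells and Ncr1+ cells of the unimmunized mice. They were also found on Ncr1+ cells of immunized mouse 1, but not on B cells.

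**Figure D4:**
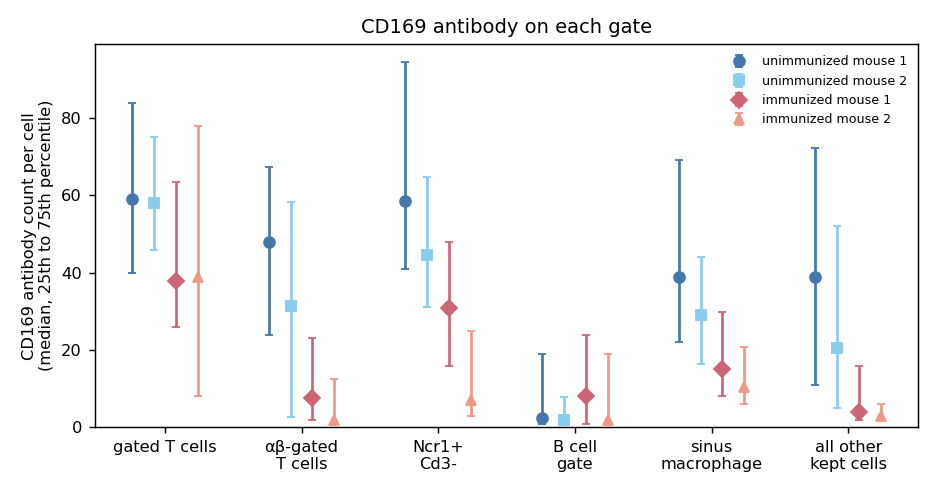
CD169 antibody count per cell in each gate and in all other kept cells, as the median (point) with the 25th to 75th percentile (bar) for each of the 4 mice. The medians of gated T cells are 59, 58, 38 and 39, above those of sinus macrophages (39, 29, 15 and 10.5) in every mouse.

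The CD169 count did not follow the delta chain. Its median was 57, 53.5, 33 and 13 on gated T cells with Trdc and 61, 60, 47.5 and 39 on those without it, lower with Trdc in all 4 mice. Between conditions the mean centred log ratio of gated T cells was 0.583 lower in the immunized mice (exact permutation p of 0.333, adjusted 0.667, the raw value being the smallest possible), and that of αβ-gated T cells 0.935 lower. Hashtag counts on gated T cells were lower too, with medians of 1060.5 and 950 in unimmunized and 651 and 445 in immunized mice. Their part in the CD169 difference was not tested.

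CD68 and F4/80, antibodies to other macrophage proteins, were lower on gated T cells than on sinus macrophages. CD68 had median counts of 8, 9, 9 and 5 on gated T cells and 27, 26, 20.5 and 15.5 on sinus macrophages, and F4/80 had 3, 2, 2 and 2 against 15, 8, 10.5 and 8.5. Their centred log ratios were lower on gated T cells by −0.690 and −0.932, in 4 of 4 mice. Against αβ-gated T cells and all other kept cells, the centred log ratios of CD68 and F4/80 differed in opposite directions. CD68 was 0.357 ± 0.207 higher than on other kept cells and 0.170 ± 0.0807 higher than on αβ-gated T cells, in 4 of 4 mice each, while F4/80 differed by −0.542 ± 0.191 and −0.286 ± 0.156 and was higher in 0 of 4 (exact sign-flip p = 0.125 for each). On the count scale F4/80 was higher than on αβ-gated T cells in all mice but immunized mouse 2, with mean counts of 5.65, 4.16, 4.67 and 2.53 against 5.25, 3.29, 2.58 and 3.28. The mean CD68 count of unimmunized mouse 1 was 12.2 on gated T cells and 14.8 on other kept cells. In the other mice it was higher on gated T cells. The total over the 6 antibodies was of the same order in both, with medians of 131, 134, 122 and 109 on gated T cells and 149, 122, 107 and 113 on sinus macrophages.

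RNA of the genes behind the sort was low in the gated T cells. Siglec1 was at 6.56, 13.7, 2.94 and 0 CPM against 13.1, 11.1, 13.3 and 27.2 CPM in other kept cells (−2.14, SE 0.51, adjusted p = 0.0116), and at 26.3, 0, 22.4 and 13.6 CPM in sinus macrophages. Itgam was at 22.2, 27.4, 33.9 and 12.9 CPM against 76.9, 97.3, 109 and 135 CPM. The Tomato transgene was at 1.56, 0, 2.94 and 0 CPM against 3.30, 2.55, 4.85 and 6.13 CPM (−1.42, adjusted p = 0.0711). At 1000 UMIs per cell, Siglec1 was detected in a mean of 0.111 ± 0.221% of gated T cells and 0.604 ± 0.698% of B cells (SD over 4 mice). It was detected in 1.81 ± 2.31% of sinus macrophages and 1.74 ± 0.972% of other kept cells. These shares are near the floor, also in sinus macrophages, so no conclusion is drawn from setting them beside the antibody counts.

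Macrophage RNA was measured in the gated T cells beside these counts. Of 26 macrophage and monocyte genes tested against other kept cells, 23 were lower and none higher, with a median of −2.31. Their summed level was 5106, 5413, 11804 and 8072 CPM in gated T cells, 6282, 6149, 9334 and 8466 CPM in αβ-gated T cells and 19005, 23409.6, 33168 and 39705 CPM in other kept cells. The most abundant was Lyz2, at a mean of 4344 CPM, and no gene of the list was at 0 in all gated libraries. At 1000 UMIs per cell, Lyz2 was detected in 68.9% of gated T cells, 63.5% of αβ-gated T cells, 74.9% of Ncr1+ cells, 56.7% of B cells and 92.6% of sinus macrophages, and C1qa in 3.91%, 3.64%, 9.03%, 4.73% and 56.9%. A C1q or B cell UMI was present in 235 of 583 gated T cells (40.3%), 197 of 530 αβ-gated T cells (37.2%) and 245 of 514 Ncr1+ cells (47.7%). The part of macrophage RNA or macrophage surface in the CD169 counts was not tested.

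Immunized and unimmunized mice were last compared within the gated T cells. No gene passed in this comparison: 0 of 11242 were called (0%) by edgeR, with 935 at an unadjusted p under 0.05, while DESeq2 called 38, of which 35 were higher in immunized mice. In simulated counts for this comparison, 42.9% of genes changed 4-fold were recovered and 14.1% of those changed 2-fold. Of the 15 genes of the type 17 transcription factor list, Blk included, 3 had a positive difference and 0 passed. Their median was −0.34 against −0.02 over all genes.

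Genes of antigen presentation were among the 25 of smallest p, beside others such as Gm9733, Clec4a1 and Kdr, and those described here were chosen after their values were seen. H2-Ab1, an MHC class II beta chain, was at 999 and 762 CPM in unimmunized and 2476 and 2383 CPM in immunized mice, so the groups did not overlap (1.56, SE 0.23, adjusted p = 0.352). H2-Eb1 differed by 1.81, Cd74, the invariant chain, by 1.69 and H2-Aa by 1.60. These 4 genes passed under 4 alternatives, namely no filter on low counts, DESeq2, a hashtag share of 90% and the 4 gated libraries alone. They did not pass with RLE size factors, the fit with αβ-gated and Ncr1+ libraries, either stricter gate, a mitochondrial limit of 10%, cells with C1q or B cell UMIs left out, or without either unimmunized mouse. They also passed without either immunized mouse, where the 1 immunized gated library left was assumed to vary like the other groups. Lyz2, of macrophages and neutrophils, was at 2341 and 3180 CPM against 6962 and 4895 CPM (1.24). Over lists, the median was 1.56 for 11 dendritic cell and antigen presentation genes and 1.02 for 26 macrophage and monocyte genes, of which 21 were positive, and 0 passed in either. In gated T cells with a Trdc UMI the antigen presentation genes summed to 4772 and 4689 CPM in unimmunized and 11227 and 19985.5 CPM in immunized mice, and in those without one to 5519, 2260.2, 14518 and 1626 CPM. The macrophage genes summed to 5159, 8989, 8384 and 13304 CPM with Trdc and to 5063, 2689, 12871 and 2043 CPM without it. The cells of immunized mouse 2 without Trdc, 9 in number, were thus the lowest of the 4 mice in both lists. The same lists were higher in the immunized mice in the other cells, where the antigen presentation genes summed to 26411 and 33427 CPM against 42039 and 51760.2 CPM, and in αβ-gated T cells, at 5827 and 6335 CPM against 10466 and 9029 CPM. With gated T cells that had a C1q or B cell UMI left out, the differences were 0.52 for H2-Ab1, 0.63 for Cd74 and 0.69 for Lyz2. Doublets and free RNA were not tested as sources of these transcripts.

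**Figure D5:**
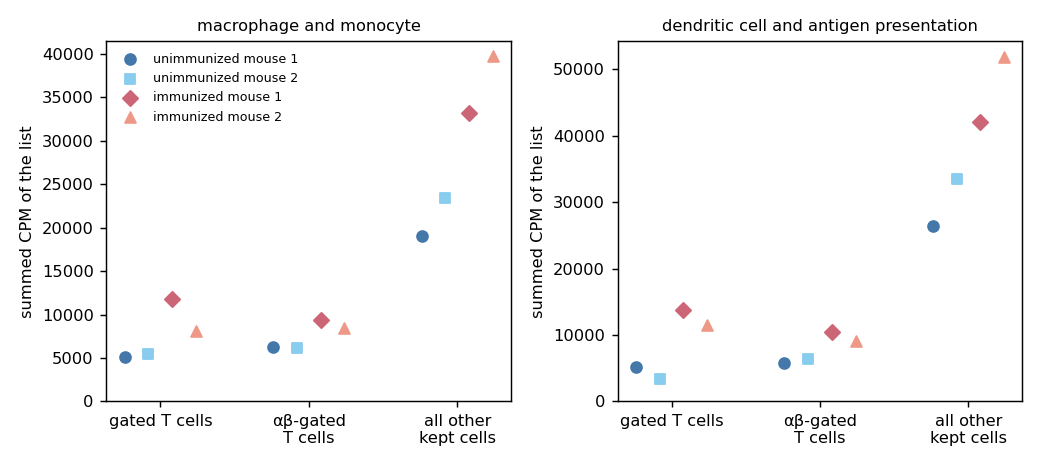
Summed CPM of the macrophage and monocyte list and of the dendritic cell and antigen presentation list for each mouse, in gated T cells, αβ-gated T cells and all other kept cells. Both lists are lowest in the 2 kinds of T cell and higher in the immunized mice, with 5106 and 5413 CPM against 11804 and 8072 CPM for the macrophage list in gated T cells.

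The test of whether immunization acted differently on gated T cells and on other cells called 0 of 11242 genes (0%) by edgeR, with 871 at an unadjusted p under 0.05 and 82 by DESeq2. With the mouse as a block, which pairs the 2 cell groups of the same animal, 160 genes were called, 150 of them positive. Of 19 genes in the list of type 17 receptors and surface proteins, Actn2 included, 17 had a positive interaction, with a median of 2.45. Of 11 alpha-beta T cell genes all did, with a median of 2.39. Thy1, a surface protein of T cells, had an interaction of 3.17 (SE 0.60, adjusted p = 0.372) without the block, and with it 3.25, which passed. Its level in gated T cells was 548 and 497 CPM in unimmunized and 347 and 504 CPM in immunized mice, and in other cells it was 149.97 and 90.7 CPM against 14.6 and 5.21 CPM. Il17re had 3.91 without the block and 3.78 with it, which also passed. Other kept cells of the immunized mice had less Thy1, and fewer of them carried Trac, as given above. What part this had in the positive values was not tested.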

How the data were processed

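The authors processed 1 CITE-seq pool of CD11b+TOM+ inguinal lymph node cells from 4 mice, run as 2 captures. The deposited gene matrix holds raw UMI counts from Cell Ranger 4.0.0 (count and aggr) against mm10, and CITE-seq-count gave the deposited hashtag and antibody matrices. No source used here says whether aggr equalized reads between captures. Coordinates are those of GRCm38.

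Of 18662 barcodes, 1242 with a sequence in both captures were left out, as the antibody files carry no capture name, and 1425 over 25% mitochondrial UMIs. A cell was kept where 1 hashtag had at least 80% of hashtag counts and at least 10 counts, leaving 12139. No doublet caller was run, and doublets within a mouse remain. UMI counts were summed per mouse and cell group and fitted with edgeR 4.0.16 (R 4.3.3, quasi-likelihood test, TMM, filterByExpr, Benjamini-Hochberg over all genes tested): 8 libraries for the comparison with other cells, immunization and the interaction, 12 (with Ncr1+ cells) for that with αβ-gated T cells. Gate genes were left out of all counts of calls. Differences are on the log2 scale. Libraries of the same mouse come from the same animal. The fit had no block, and correlations of paired deviations were 0.0207 (unimmunized) and 0.00716 (immunized). Common dispersion was 0.0434 and 0.0445. Antibody counts were compared as centred log ratios per mouse with exact tests.

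Genes named were those of the gate, label and gene lists, and the 8 largest rises and falls among called genes whose mean log2 CPM reached 5, predicted genes left out. Il17re, Thy1, Lyz2 and the MHC class II genes in the immunization tests, and Cxcr6, Il23r, Il7r and Ccr2 where they did not pass, were chosen after their values were seen. The gate, members and lists were chosen with earlier results of these data known. On simulated counts the comparison with other cells recovered 78.8% of genes changed 4-fold and that with αβ-gated T cells 88.5%. Each mouse is 1 biological replicate. Alternatives covered size factors, the filter, DESeq2, the block, stricter gates and cell rules, each mouse left out, and, chosen after seeing the data, each capture alone and the Ncr1+ comparison with each mouse left out. Values of 2 list genes are not reported here, though counts and medians of their lists include them.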

Additional observations from a re-analysis of the deposited data

How the results depend on the processing

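The number of genes called against other kept cells fell from 3556 to 1877 when the gate required a Trdc UMI and ranged from 1063 to 3661 with 1 mouse left out, lowest without unimmunized mouse 1 and 1533 without unimmunized mouse 2. Against αβ-gated T cells the 82 calls became 279 with no filter on low counts and 54 with a Trdc UMI required, and ranged from 0 to 278 with 1 mouse left out. For immunized against unimmunized gated T cells, 0 calls became 159 with no filter, 38 with DESeq2, 26 at a hashtag share of 90% and 176 with the 4 gated libraries alone, and ranged from 0 to 79 (12 without immunized mouse 1 and 79 without immunized mouse 2). For the interaction, 0 calls became 361 with no filter, 82 with DESeq2 and 160 with the mouse as a replicate block, and ranged from 0 to 289 (289 without immunized mouse 1 and 96 without immunized mouse 2). With 1 mouse left out, the lone mouse of its group was assumed to vary like the others. The cause of these shifts was not tested. The block gave 3744 calls against other cells and 96 against αβ-gated T cells, within 1.5 times the counts without it, and the immunization comparison within gated T cells cannot be blocked. Among named genes, 3 changed sign in the comparison with other cells: Pdcd1 (−0.89 without unimmunized mouse 1, up to 4.51 without immunized mouse 1) and Trdv4 (−0.84 without unimmunized mouse 1, up to 4.42 without unimmunized mouse 2), and Tcrg-V4 (−1.20) with a Trdc UMI required. Over 157 genes and 2031 alternative values there, 1817 kept direction and side of the threshold and 211 lost the call. Against αβ-gated T cells 417 of 519 kept both, 92 lost the call and 10 gained it. For the 5 genes named in the immunization comparison 29 of 70 values gained the call, and for the 2 named in the interaction 10 of 26 did, with no change of sign. The share and the CD169 differences kept their direction in all alternatives run, with −15.0 to −7.35 percentage points for the share and 1.07 to 1.33 for CD169 against other cells with 1 mouse left out, though no test of 4 mice could pass. Depth limits all values of immunized mouse 2, with 19 gated cells.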

Other observations

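The neutrophil genes S100a8 and S100a9 were at 820 and 916 CPM in αβ-gated T cells of unimmunized mouse 1 and at no more than 12.6 CPM in those of the other 3 mice. In gated T cells both were between 3.43 and 12.9 CPM in all 4 mice. Gated T cells of immunized mouse 2 stood apart for Xcl1, a chemokine of natural killer and cytotoxic T cells, at 187 CPM against 7.50, 44.6 and 8.83 CPM in unimmunized mice 1 and 2 and immunized mouse 1, over 19 cells.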
